A study of Homo sapiens with 2 samples.

Results

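The named long noncoding RNA genes bound by RBM47 were taken by symbol from a table of HITS-CLIP clusters. A gene was a member when its symbol began with LINC, NCRNA or SNHG and a digit, ended in -AS or in -AS and a number, or was GAS5, TUG1, PVT1, MEG3, MIAT, KCNQ1OT1, H19 or CRNDE. The table listed 109 such genes among 7712 genes with an Entrez ID, and 1725 of its 233546 clusters were assigned to them. No tag count entered this choice. Through their Entrez IDs, 107 of the genes were matched in RefSeq, which called 102 of them lncRNA, 2 antisense RNA and 3 protein coding (TUG1, LINC00634 and LINC00493). HNRNPU-AS1 and LINC00875 were the unmatched genes.

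Long noncoding RNAs are transcribed, and often spliced and polyadenylated, like mRNAs, but act as RNA rather than as templates for protein. Some serve as scaffolds or decoys for proteins, some regulate the genes next to them, and some are known mainly as hosts from whose introns small nucleolar RNAs (snoRNAs) or microRNAs are cut. Many stay in the nucleus, where an RNA-binding protein can meet unspliced transcripts as well as mature ones.

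The study used HITS-CLIP to map the RNAs that RBM47, an RNA-binding protein, touches in living cells. Ultraviolet light crosslinks protein to RNA, the protein is pulled down through its Flag tag, and the attached fragments are sequenced. The cells were MDA231-BrM2a, a non-clonal line derived from MDA-MB-231 breast cancer cells for its spread to the brain, with a transgene for wild-type RBM47 that carries a Flag tag and is switched on by doxycycline. Both samples, replicates 1 and 2 of a single group, were given doxycycline at 1 ng/ml over 3 days and then irradiated, so the RBM47 measured came from the transgene. Neither an untreated library nor one from cells without the transgene was analysed here, and RNA abundance was not analysed here, so a strongly bound RNA and an abundant one cannot be told apart.

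A tag is a sequenced fragment after copies made by amplification were collapsed, and a cluster is a run of overlapping tags, listed where each replicate gave 1 tag or more and the total was 5 or more. The tags in the table numbered 999047 for replicate 1 and 3489697 for replicate 2, so a single cluster was measured less precisely in replicate 1. Where not stated otherwise, a gene's tags are the authors' total over its clusters of at least 10 tags, the lower limit for a cluster in what follows. The markers of this cell line were read first. VIM, CD44, AXL, CAV1 and EGFR, which mark mesenchymal, triple-negative cells, held between 2335 and 8404 tags each, whereas ESR1 and PGR were not listed and ERBB2 held 1 cluster of 5 tags.

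Cluster positions are on hg18, of which no genome sequence was used here, so bases under the clusters were not read. To show what kind of sequence these RNAs carry, runs of at least 8 consecutive U, written T in DNA letters, were searched on the sense strand in the longest GENCODE transcript of each gene that held more than 100 tags. Such a run was present in 16 of the 23 genes found there, and 12 of the 23 exceeded 0.188 runs per kb, the rate over the longest transcripts of all 18635 lncRNA genes, of which 18.4% held at least 1. How many of all lncRNA genes exceed that rate was not counted. The named transcripts are longer, with a median of 4015 nt against 920 nt. Neither count of named genes can therefore be set against all lncRNA genes. TUG1 had 3 runs (0.401 per kb), NORAD had 1 (0.185 per kb) and SNHG16 had 5 (1.39 per kb), while SLC7A11-AS1 and PVT1 had none. The longest run of 5 genes is shown with its flanks, chosen as the members with the most tags that are unspliced or led by exon tags and hold such a run. Capitals mark the run, and positions are on GRCh37, at chr22:31372229-31372254 (plus strand) for TUG1, chr20:34633821-34633850 (minus) for NORAD, the current name of LINC00657, chr3:14984769-14984795 (minus) for FGD5-AS1, chr15:41597429-41597454 (plus) for OIP5-AS1 and chr6:72119749-72119775 (minus) for LINC00472. Each lies within 1 exon. Builds were not converted, so whether a run lies under a cluster was not tested.
TUG1: gtaatagaTTTTTTTTTTaattgctc
NORAD: attacatcTTTTTTTTTTTTTTTagcagtt
FGD5-AS1: ggcaggtcTTTTTTTTTTTgtaacact
OIP5-AS1: taaaaaaaTTTTTTTTTTaaacagtc
LINC00472: ctctaagaTTTTTTTTTTTcttttttt

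The long noncoding RNA genes taken by the symbol rule, which leaves out NEAT1 and MALAT1, held a small part of the RBM47 tags. Replicate 1 gave 2799 of its tags to their clusters of at least 10 tags and replicate 2 gave 9683. Per 1000 of all deposited tags of each replicate this is 2.80 and 2.77, a mean of 2.79 ± 0.0190 (SD, n = 2). By the authors' total the members held 12352 tags in 538 clusters, or 0.347% of the tags in all clusters of at least 10 tags. On that denominator the SD between the replicates was 0.0201 percentage points. The replicates thus differed far less in this share than in their number of tags.

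Fewer of these genes reached a given depth than genes at large. A cluster of at least 10 tags was found in 60 of the 109 genes (55.0%), against 72.6% of all listed genes, and more than 100 tags in 24 (22.0%), against 39.9%. Over all deposited clusters the median was 31 tags per member gene and 97 per other gene. Per length of cluster the members lay closer to the rest, with a median of 145 tags per kb of clusters in the 60 genes and 164 in 5540 other genes, and 20 of the 60 were above the latter value. These shares and medians are descriptions, since genes of 1 pair of libraries are not replicates.

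Tags were concentrated in few members. The 24 genes with more than 100 tags held 89.9% of the member tags, and the 4 with more than 1000, TUG1, LINC00657, SLC7A11-AS1 and LINC00478, held 45.5%. TUG1 alone held 16.4%. At the other end, 27 genes were listed with a single cluster. Only 11 member clusters reached 100 tags, of 4509 in the table, and they lay in TUG1, LINC00657, SLC7A11-AS1, HNRNPU-AS1 and LINC00486. Across the 60 genes, the tags of the libraries correlated with Spearman's rho of 0.955, given without a p-value since genes share their libraries.

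**Figure D1:**
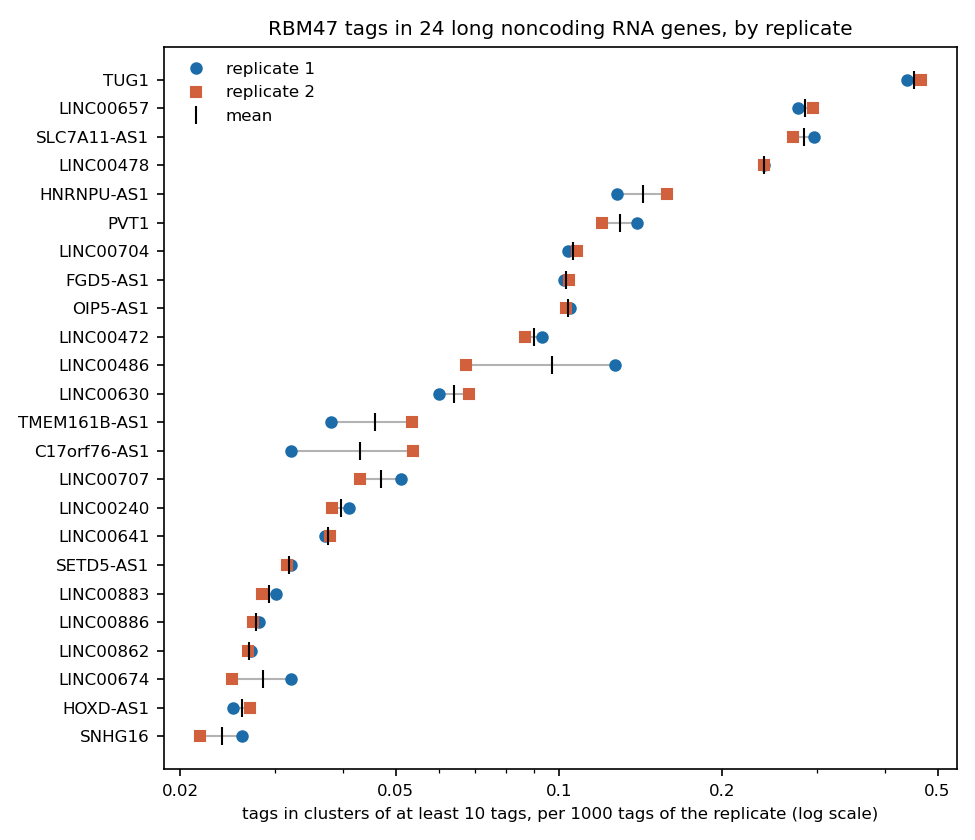
Tags in clusters of at least 10 tags for the 24 long noncoding RNA genes with more than 100 such tags, per 1000 tags of each replicate, on a log axis. Circles are replicate 1, squares replicate 2 and ticks their mean. TUG1 stands highest at 0.438 and 0.466, and LINC00486 shows the widest gap between the replicates, 0.127 against 0.0673.

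Members were tagged mainly in introns and in exons of noncoding transcripts. The authors' labels put 357 of the 538 clusters in introns (66.4%), with 13 in 3'UTRs. Another 163 (30.3%) carried the label exon_unclassified, which is read here as an exon of a noncoding transcript. Introns held 53.6% of the member tags in replicate 1 and 50.9% in replicate 2, a mean of 52.2% ± 1.90 (SD, n = 2). Noncoding exons held 42.3% and 44.7%, a mean of 43.5% ± 1.65. In clusters of all other genes, 18.5% of the tags by the authors' total were in introns and 47.4% in 3'UTRs, an mRNA region that most members lack by definition. The order of introns over exons depended on the tag minimum and on LINC00657. In clusters of at least 30 tags, introns held 31.0% of the member tags by the authors' total and noncoding exons 63.0%, and at the minimum of 10 tags the intron share was 48.9% without LINC00657. Median densities likewise turned. At the minimum of 10 tags they were 184 tags per kb in exon clusters and 126 in intron clusters, but 269 and 314 at the minimum of 30. That turn also rested on LINC00657, whose clusters labelled intron had 244 to 1525 tags per kb at the minimum of 30. For other genes the medians at 10 tags were 167 and 137 tags per kb.

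Members were only part of the tags in noncoding exons. NEAT1 and MALAT1, nuclear RNAs that organise paraspeckles and speckles and that the symbol rule does not take, held 167909 of 211640 such tags. Their cluster densities were 5648 and 10316 tags per kb. Among members with more than 100 tags, most of them in noncoding exons, the highest density was 315 tags per kb, in TUG1. LINC00486 at 8227 tags per kb and LINC00657 at 583 were denser, but neither held noncoding exon tags. C17orf76-AS1 at 328 was also denser than TUG1, with 23.7% of its tags in noncoding exons. Without NEAT1 and MALAT1, 43731 tags in 1130 clusters remained, of which members held 5445 tags in 163 clusters, or 12.5% of the tags.

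Among the 24 genes with more than 100 tags, 11 were led by exon tags, 12 by intron tags and 1, C17orf76-AS1, by tags labelled 3'UTR. The exon-led genes held 4869 tags, and the median span from first to last cluster was 6.36 kb, with densities of 126 to 315 tags per kb. The intron-led genes held 6017 tags over a median span of 47.9 kb. Their densities ran from 96.4 to 8227 tags per kb, with a median of 129 against 160 in the exon-led genes. Of the 45 genes with more than 1 cluster of at least 10 tags, 19 had intron tags alone and 9 noncoding exon tags alone.

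**Figure D2:**
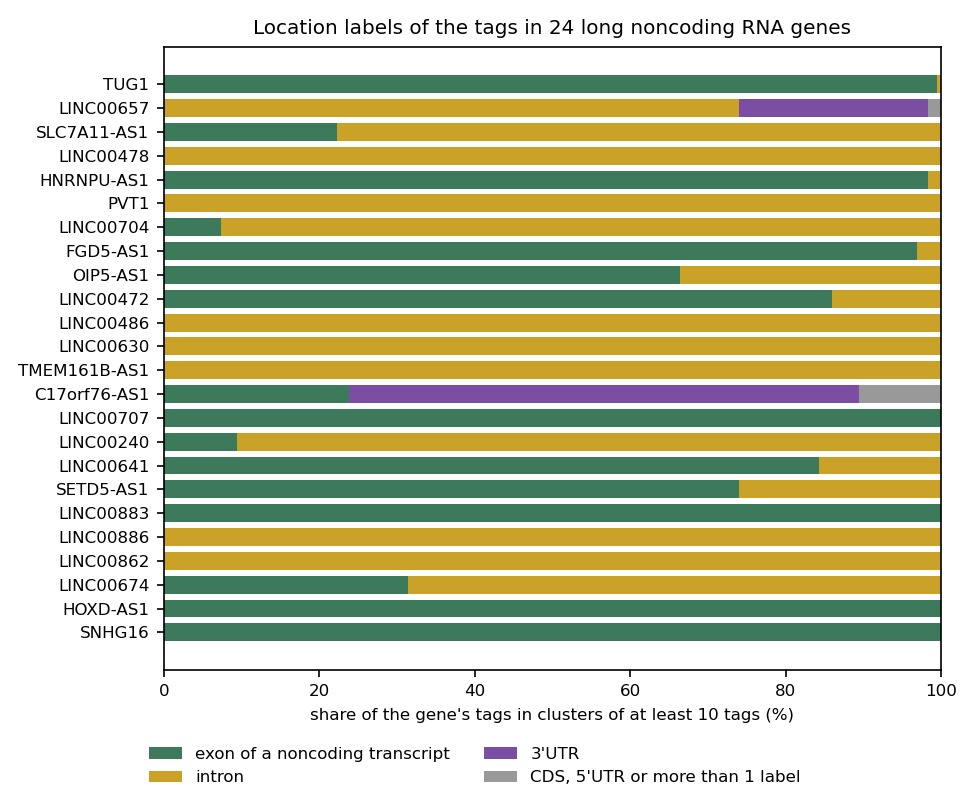
Share of each gene's tags by location label, for the 24 genes with more than 100 tags in clusters of at least 10 tags, ordered by tags. TUG1, HNRNPU-AS1 and FGD5-AS1 are almost wholly exonic, whereas LINC00478 and PVT1 are wholly intronic. LINC00657 is 74.0% intronic and C17orf76-AS1 65.8% 3'UTR by label.

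TUG1, a widely expressed RNA that associates with chromatin-modifying complexes and that RefSeq now also credits with a protein, was the member with the most tags (Entrez 55000, chromosome 22, plus strand). Replicate 1 gave it 438 tags and replicate 2 gave it 1626, or 0.438 and 0.466 per 1000. Of its 34 clusters, 29 reached 10 tags, and together they covered 68.3% of the 9.42 kb between the first and the last. Exons held 99.5% of the 2027 tags. Its deepest cluster, at 29702242 to 29702756, held 49 and 208 tags. The second, at 29703491 to 29703981, held 52 and 182. Tags increased towards the 3' end, with 21.0%, 33.0% and 46.0% in successive parts of equal length, and both libraries had this order. It took 6 clusters to reach 50% of the tags, so RBM47 contacts were spread along the RNA rather than held at 1 site.

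LINC00657, now NORAD, an abundant cytoplasmic RNA that binds Pumilio proteins, came next (Entrez 647979, chromosome 20, minus strand). It had 276 tags in replicate 1 and 1027 in replicate 2, in 25 clusters within 5.33 kb. At 583 tags per kb of clusters it was denser than TUG1 at 315 tags per kb, and second in density to LINC00486 among the 24 genes. Its deepest cluster, at 34097609 to 34097856, held 51 and 203 tags. The labels gave 74.0% of its tags to an intron and 24.3% to a 3'UTR, although NORAD is known as an unspliced RNA. Which gene model the labels rest on was not tested. Towards the 5' end the RNA was less tagged, with 10.1% of the tags in the first of its 3 equal parts against 43.3% and 46.6%.

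FGD5-AS1 and LINC00472 resembled TUG1 in being exonic and compact. FGD5-AS1 had 102 and 364 tags in 14 clusters that covered 62.5% of 3.32 kb, at 222 tags per kb. No part of it dominated, and the deepest cluster held 76 tags (20 and 56). LINC00472 had 93 and 302 tags, of which 80.6% in replicate 1 and 73.5% in replicate 2 lay in the last of 3 equal parts of its 5.27 kb. OIP5-AS1, known as Cyrano and as a binding partner of the RNA-stabilising protein HuR, had 105 and 360 tags, and all of those in clusters of at least 10 tags were in the last of the 3 parts of its 21.2 kb. Exons held 66.4% of them.

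Other exon-led members were smaller. LINC00707 had 51 and 150 tags, all exonic. LINC00641 had 37 and 132 tags. SETD5-AS1, now THUMPD3-AS1, had 32 and 110. All of these lay between 126 and 145 tags per kb. LINC00883, now DUBR, had 30 and 99 tags and HOXD-AS1, now HAGLR, from the HOXD homeobox gene cluster, had 25 and 94. Both carried noncoding exon tags alone, at 152 and 160 tags per kb.

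LINC00478, now MIR99AHG, the host gene of miR-99a, let-7c and miR-125b-2, showed the opposite pattern (chromosome 21, plus strand). Over all deposited clusters it was the member with the most tags, with 619 in replicate 1 and 1914 in replicate 2. They were scattered over 301 clusters and 394 kb. Its 78 clusters of at least 10 tags had 239 and 833 tags, all intronic, at 115 tags per kb, and none held more than 44 tags. Of these, 90.7% lay in the first of 3 equal parts of the span, at 90.0% in replicate 1 and 91.0% in replicate 2. Clusters of this depth thus lay mostly towards the 5' end of the tagged span.

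PVT1, a neighbour of MYC, was likewise wholly intronic, with 139 tags in replicate 1 and 419 in replicate 2 in 38 clusters, at 119 tags per kb. In contrast to LINC00478, 74.2% of them lay in the last of 3 equal parts of a 286 kb span, and none in the first. The deepest cluster held 7 and 26 tags. LINC00704, now MANCR, an RNA named for its association with mitosis, had 104 and 377 tags, 92.6% of them intronic and 85.0% in the first of the 3 parts of 96.1 kb. Over all deposited clusters the unevenness was less, with 77.3% of the LINC00478 tags in the first part, 67.2% of the PVT1 tags in the last and 61.6% of the LINC00704 tags in the first.

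The remaining intron-led genes were smaller. LINC00630 had 60 and 238 tags, TMEM161B-AS1 had 38 and 187, and LINC00240 had 41 and 133. All tags of LINC00630 and TMEM161B-AS1 were intronic, over spans of which that of LINC00630 was the widest of this set at 86.6 kb. LINC00886 had 28 and 95 tags, LINC00862 had 27 and 93, and LINC00674 had 32 and 87. LINC00862 was the least dense of the 24 genes, at 96.4 tags per kb, and LINC00674, which also carried 31.4% exon tags, had the shortest span of this set at 7.23 kb.

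**Figure D3:**
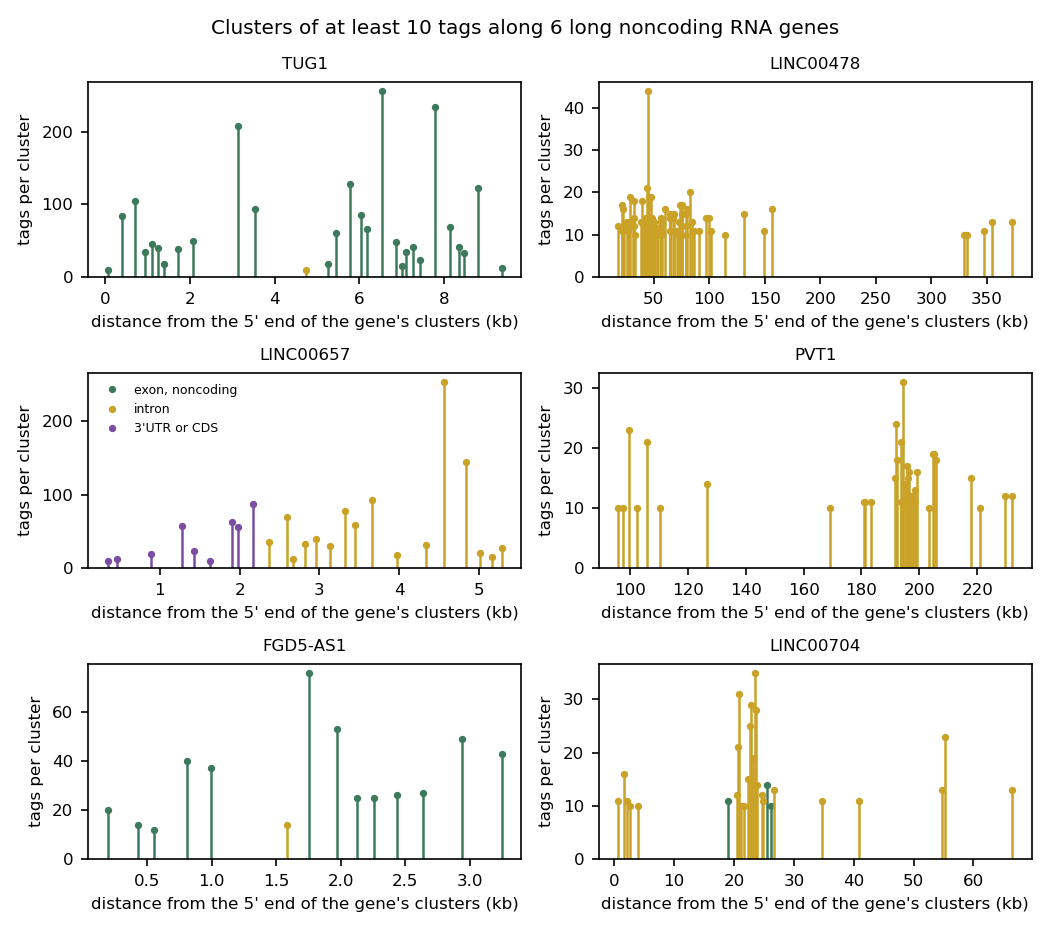
Tags in each cluster of at least 10 tags against its distance in kb from the 5' end of the gene's clusters, for 3 compact genes (left) and 3 genes with wide introns (right). Each panel has its own scales. TUG1, LINC00657 and FGD5-AS1 are tagged throughout, with clusters of up to 256, 254 and 76 tags, whereas the clusters of LINC00478, PVT1 and LINC00704 lie unevenly along wide spans, in several groups for PVT1 and LINC00704, and hold at most 44, 31 and 35 tags.

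Genes with an antisense symbol were the largest class by number, with 54 genes and 4205 tags in clusters of at least 10 tags, 34.0% of the member tags. Exons held 51.2% of these tags, and most of the rest lay in introns. The sense partner, taken as the symbol before the hyphen, was itself listed for 33 of the 54. A symbol that names no single gene, such as HOXD, could not be matched. Whether each gene runs against its partner was not tested. Over all deposited clusters, which are used for the pairs here, the partner held more tags in 27 pairs and the antisense gene in 5. The remaining 1 pair was equal, at 5 tags each. Clusters of the 2 genes overlapped in only 3 pairs, those of SLC7A11-AS1, HIF1A-AS2 and SBF2-AS1, and in 26 pairs the spans of the clusters lay apart. In the other 30 pairs no antisense cluster lay over a cluster of the partner.

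SLC7A11-AS1 was the antisense gene with the most tags and an exception to this (chromosome 4, plus strand). It had 296 tags in replicate 1 and 943 in replicate 2, in 56 clusters at 166 tags per kb. Its partner SLC7A11, on the minus strand, encodes the light chain of the cystine-glutamate antiporter and held 18859 tags at 753 tags per kb. Of all deposited SLC7A11-AS1 clusters, 15 lay over 4 clusters labelled 3'UTR in SLC7A11, the deepest of which is also labelled CDS. Those 15 held 590 tags against 7656 on the SLC7A11 strand, or 7.71%, which was 9.04% in replicate 1 and 7.42% in replicate 2. As a set they were deeper, with a median of 33 tags against 7 in the 152 clusters elsewhere. The deepest cluster of SLC7A11-AS1, at 139309306 to 139309805, was among them and held 18 and 84 tags.

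Away from that 3'UTR, SLC7A11-AS1 still held 651 tags in 42 clusters of at least 10 tags, of which the deepest had 42. Whether part of the tags over the 3'UTR come from the SLC7A11 strand was not tested. Across the whole table, 5 of 180 clusters with at least 1000 tags had a cluster on the opposite strand (2.78%), with a median of 3.60% of their own tags, as did 63 of 4329 clusters with at least 100 but under 1000 tags (1.46%). Of clusters under 100 tags, 0.520% had one. Among the members, 33 clusters (1.91%) with 774 tags lay over a cluster of the other strand, and 32 of these were among the 1714 member clusters under 100 tags (1.87%). SLC7A11-AS1 supplied most of them, and outside it 7 member clusters (0.449%) had such an overlap. Leaving out all 33 kept 24 genes above 100 tags and a share of 0.328% of the tags in clusters of at least 10 tags.

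**Figure D4:**
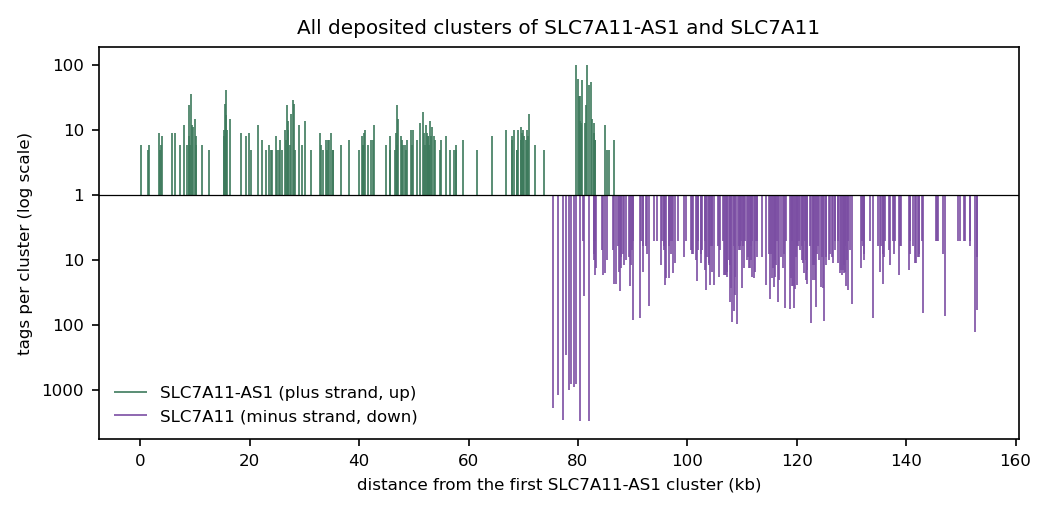
Every deposited cluster of SLC7A11-AS1 (plus strand, up) and SLC7A11 (minus strand, down), as tags per cluster on a log scale in both directions, against the distance in kb from the first SLC7A11-AS1 cluster. The deepest SLC7A11-AS1 clusters, up to 101 tags, stand over the SLC7A11 3'UTR, and those elsewhere reach 42 tags.

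HNRNPU-AS1 went against its name. It had 128 and 552 tags in clusters of at least 10 tags, 98.4% of them exonic, at 241 tags per kb, and its deepest cluster, at 243072338 to 243072673 on chromosome 1, held 21 and 96, more than any other cluster of an antisense member. The table lists it on the minus strand, the same strand as HNRNPU, which encodes a nuclear matrix protein that binds RNA. Of the 33 pairs this was the only one on 1 strand. The gap of 3202 nt between the clusters of both genes was filled by 24 minus-strand clusters with 327 tags that the table assigns to no gene. Over the joint span of 23.8 kb the plus strand carried 1 cluster of 10 tags. The tags of HNRNPU-AS1 and those of transcripts that run on from HNRNPU cannot be told apart in this table.

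The snoRNA hosts, whose spliced exons are discarded or kept while snoRNAs mature from their introns, held few tags. Of the 10 listed, 4 had a cluster of at least 10 tags, with 238 tags in all (1.93% of the member tags). Exons held 91.2% of these tags. In those 4 hosts such clusters were not sparse, with a median of 180 tags per kb of clusters against 164 in other genes. SNHG16 had 26 and 76 tags, at 232 tags per kb. SNHG1 had a single cluster of at least 10 tags, on chromosome 11 at 62376118 to 62376695, with 17 and 79, the deepest of the class. GAS5, a growth-arrest transcript, had 6 and 23 tags in 3 exon clusters over all deposited clusters. The snoRNAs themselves were listed for 18 genes with 906 tags, and in 1 host, SNHG6, such a cluster lay within the span of the host's own clusters, with 86 tags of SNORD87 against 13 of SNHG6. That span is narrow where a host has few clusters. Within 5 kb lay 1 cluster of SNORD99 with 74 tags near SNHG12, which held 6. Near SNHG16 lay 3 clusters of SNORD1C with 19 tags. C17orf76-AS1, which RefSeq now names SNHG29, counts here as antisense by its symbol. It had 32 and 188 tags at 328 tags per kb, 89.5% of them in the last of 3 equal parts, and its deepest cluster held 17 and 73.

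Of the 8 genes the rule spells out, 5 were listed. TUG1, PVT1 and GAS5 are described above. CRNDE, named for its expression in colorectal neoplasia, had 8 and 40 tags over 6 intron clusters, and KCNQ1OT1, the imprinted antisense RNA of the KCNQ1 domain, had 1 cluster with 1 and 4. H19 and MEG3, which are imprinted, and MIAT were not listed. A gene is listed only where a cluster has tags in both replicates, so its absence sets no level.

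LINC00486 had the deepest and densest cluster of all members. Its tags came from a single cluster of 44 nt on chromosome 2, plus strand, at 32945671 to 32945715, labelled intron. The cluster held 127 tags in replicate 1 and 235 in replicate 2, and its 8227 tags per kb had rank 4 among the 5600 genes with a cluster of at least 10 tags. Replicate 1 gave 35.1% of its tags (95% Wilson interval 30.3 to 40.1), where the column sums of the table give 22.3%. The split differed by an exact binomial test over all clusters with Benjamini-Hochberg adjustment (adjusted p = 0.000449). It was the only member cluster of 1725 to pass, also with the stated library totals, beside 0.0111% of all clusters, and 44 member clusters had an unadjusted p under 0.05. The test compares these libraries, and no longer called this cluster when a beta-binomial test took the spread between libraries from clusters of at least 100 tags (adjusted p = 0.184).

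The nearest cluster to it lay 49446 nt away on the opposite strand, in a region without a gene, at 32995161 to 32995210. It was also narrow and deep, with 71 and 114 tags in 49 nt, and also held more of its tags in replicate 1 than the column sums give (38.4%, Wilson interval 31.7 to 45.6, adjusted p = 0.00862 by the same exact test). No other cluster was listed within 50 kb on either side.

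Summed over all deposited clusters, 3 of the 109 genes had a split between the libraries that passed the exact binomial test, beside 1.52% of all genes, and 10 had an unadjusted p under 0.05. LINC00486 was the first (adjusted p = 1.49e-05 by the exact test). PVT1 had 383 tags in replicate 1 and 1073 in replicate 2, so that replicate 1 gave 26.3% (24.1 to 28.6, adjusted p = 0.0140 by the exact test). TTN-AS1, antisense to the gene of the muscle protein titin, had 59 and 118, or 33.3% (26.8 to 40.6, exact test, adjusted p = 0.0381). The expected share was 22.0%, and all 3 lay above it. A cluster is listed only with a tag in each replicate, which raises the replicate 1 share of small clusters. For genes made of many small clusters, such as PVT1, the test cannot tell this listing rule from a difference between the libraries. PVT1 and TTN-AS1 were not called under another scaling, a beta-binomial test or a sum over clusters of at least 10 tags, and LINC00486 was called under each. With the expected share taken from the library totals that the study states instead of the column sums, 6 members were called, beside 4.36% of all genes. SLC7A11-AS1, LINC00478 and NR2F2-AS1 were those added. Of the 336 genes called in all, 322 were higher in replicate 1, as were the 6 members.

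**Figure D5:**
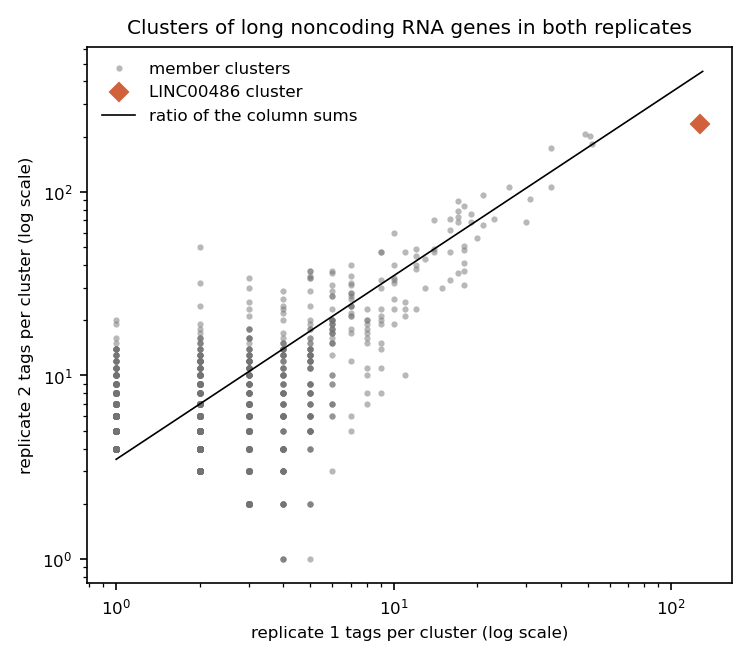
Tags of replicate 2 against tags of replicate 1 for the 1725 clusters of long noncoding RNA genes, both on log axes. The line is the ratio of the column sums, 3.49. The LINC00486 cluster (diamond, 127 and 235 tags) lies to the right of the line, and the deep clusters of TUG1 and LINC00657 lie close to it.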

How the data were processed

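Flag-RBM47 HITS-CLIP was carried out on MDA231-BrM2a cells in 2 labelled replicates of 1 group. The study calls tags in both replicates biological complexity, but no source used here says that the replicates came from separate cultures, so the SD and the split tests measure only the spread between these libraries, which may be technical. The authors added poly(A) to the fragments, copied them from an oligo(dT) primer with a degenerate barcode, mapped the reads, collapsed copies to tags and clustered overlapping tags. The submitters' processing notes name Novoalign and hg18, without a version or role. The authors deposited counts, giving each cluster's tags in replicate 1, in replicate 2 and in total. Whether positions count from 0 or 1 is not known, and cluster length is end minus start. In 184 member clusters the total was lower than both replicates added together, by 260 tags overall. The total was used for filters and shares unless a replicate is named. The columns hold listed clusters only and are not library depths.

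A two-sided exact binomial test compared the split of each cluster and gene with the share that replicate 1 has of the whole table. Its p-values were adjusted by Benjamini-Hochberg over the table, with a threshold of 0.05, and it was first tested on simulated data. Those data had no spread between libraries and no demand for a tag in each replicate, so they cannot show its error rate here. Wilson intervals (95%) reflect counting error only. Locations, antisense pairs and snoRNA hosts were described without a test. Named with values were genes above 100 tags (in clusters with 10 or more), the symbols spelled out, the deepest cluster of each class, members passing a split test, sense partners, NEAT1 and MALAT1. LINC00634, LINC00493, LINC00875, SNHG6, SNHG12, HIF1A-AS2, SBF2-AS1 and the genes with near-identical copies were named after their values were seen. Members, lists and tests were chosen with earlier results of these data known. Alternatives were other tag minimums, either replicate alone, merged clusters, current symbols, other scalings and a beta-binomial test. The study states rounded library totals, the larger first and without replicate numbers. The smaller was taken here as replicate 1, the replicate with fewer tags in the table. RefSeq (GRCh38.p14) served for current names and gene types only, and U runs came from GENCODE v44lift37. Python 3.11.15, pandas 2.3.3, NumPy 2.4.6, SciPy 1.17.1 and matplotlib 3.10.9 were used.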

Additional observations from a re-analysis of the deposited data

How the results depend on the processing

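The number of genes and the intron share depended on the tag minimum. A share of all tags here is of the tags in all clusters that met the same minimum. With all deposited clusters there were 109 genes, 1725 clusters, 0.449% of all tags, 37 genes over 100 tags, 12.5% in the first gene (then LINC00478), and 64.4% of the tags and 79.7% of the clusters in introns. With at least 30 tags these were 20, 87, 0.241%, 9, 32.8%, 31.0% and 28.7%, and with at least 100 tags 5, 11, 0.131%, 5, 51.8%, 37.4% and 27.3%. With either replicate alone at the same minimum, genes ranged from 15 to 48 and clusters from 54 to 359. Replicate 1, with fewer listed tags, gave the fewest genes and clusters. The share of all tags then ranged from 0.242% to 0.314%, genes over 100 tags from 4 to 16 and the first gene from 19.5% to 34.9%. Introns then held 36.1% to 46.2% of the tags and 27.8% to 60.2% of the clusters. Members taken by current symbol held 0.378% of all tags. Without LINC00657, introns held 48.9% of the tags. Of the genes, 1 was called by the split test under each of 3 alternatives (median-ratio scaling, beta-binomial, clusters of at least 10 tags summed) and 6 with the library totals the study states, and 0 member clusters under the beta-binomial test with the spread from clusters of at least 100 tags, against 1 under the exact test. Those last alternatives, leaving out LINC00657 or LINC00486, and leaving out opposite-strand overlaps were chosen after seeing the data. In all, 17 of 56 alternatives of summary values moved by less than the limit set for a change. No paired analysis was possible because the series has a single group.

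Counts of a few tags carry wide intervals, and replicate 1, with fewer listed tags, limits every split. The symbol rule misses long noncoding RNAs with other names and takes 3 genes now called protein coding. LINC00623 is listed on both strands, and it, LINC00152, NUTM2A-AS1 and LINC00842 have near-identical copies, so their tags are uncertain. No background library bears on any value.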
